A study of Homo sapiens with 16 samples.

Results

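The nuclear genes for the subunits of oxidative phosphorylation were followed across 16 RNA-seq libraries of human lung cancer cells. They were chosen by name from the gene symbols of the deposited tables: the NDUF, UQCR, SDH and ATP5 families and 11 listed subunits or relatives of cytochrome c oxidase. The rule matched 85 symbols. The read-through loci ATP5MF-PTCD1 and NDUFC2-KCTD14 and the non-coding loci NDUFA6-DT, NDUFB2-AS1 and NDUFV2-AS1 were set apart, which left 80 genes of 18227. Of these, 36 belong to complex I, 4 to complex II, 9 to complex III, 11 to complex IV (NDUFA4 counted there) and 17 to complex V. The other 3 are NDUFA4L2, a paralogue of NDUFA4, ATP5IF1, an inhibitor of the ATP synthase, and COX7A2L, a factor that helps complexes join into supercomplexes. Reads of ATP5MF and NDUFC2 may be divided with their read-through loci, and those of UQCRH with its near-identical copy UQCRHL, so these 4 levels are uncertain.

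Oxidative phosphorylation takes place in the inner mitochondrial membrane. Complex I (NADH dehydrogenase) and complex II (succinate dehydrogenase, also an enzyme of the citric acid cycle) pass electrons to ubiquinone, complex III passes them to cytochrome c, and complex IV passes them to oxygen. Complexes I, III and IV pump protons, and complex V, the ATP synthase, uses the proton gradient to make ATP. Mitochondrial DNA encodes 13 subunits of complexes I, III, IV and V, and all others, with every subunit of complex II, come from nuclear genes like those described here. Their transcription is known to be driven by nuclear respiratory factor 1 (NRF1), GA-binding protein (GABP) and the oestrogen-related receptors (ERR), with the coactivator PGC-1alpha, the product of PPARGC1A.

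A549 and H2023 are established non-small cell lung cancer lines. Each was sequenced as wild type and as 1 clone carrying a ZC3H12A knockout (labelled g2-3 in A549 and g2-1 in H2023, Clone2-2 in both). ZC3H12A encodes Regnase-1, an endonuclease that degrades messenger RNAs. Cells had either grown for 3 days under normal conditions or for 7 days as oncospheres, a culture meant to enrich stem-like cells, so culture and days cannot be told apart. Each of the 8 groups had 2 libraries. No label says that they came from separate cultures, so p-values measure the spread between these samples, which may be technical. With a single clone per line, the knockout and other properties of that clone cannot be told apart either.

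The level of ZC3H12A itself went against the label in 3 of 4 comparisons. In normal A549 culture wild-type libraries stood at 30.72 and 34.88 TPM, while those with the knockout label were at 16.90 and 19.93 TPM (TPM, a transcript level per length, scaled to 1000000 over the genes of a library). In A549 oncospheres the wild-type values of 48.48 and 49.17 TPM lay below the labelled knockout values of 60.17 and 55.60 TPM. In H2023 they were 26.78 and 29.85 against 41.48 and 41.54 TPM in normal culture, and 32.54 and 26.41 against 94.61 and 69.18 TPM in oncospheres. An RNA level does not show whether protein is made, and the groups are called labelled knockout here. Read depth is not given by TPM and is unknown. Genes of the mitochondrial genome took 10.3% to 18.7% of TPM in normal culture libraries and 19.5% to 25.6% in oncosphere libraries, and since TPM is a share, a larger mitochondrial share leaves less for every nuclear gene. Epithelial markers were present (6 of 6, for example KRT8 at 765.43 TPM or more in every library, although EPCAM was at 0.37 to 9.40 TPM in A549). Of 10 markers of blood, endothelial and stromal cells, 4 had rows, and their summed level was 31.6 to 184.18 TPM, most of it CD68. Any part of those markers in the results was not tested.

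Promoters of 4 subunit genes are shown because their transcripts were among the lowest, relative to wild type, in one of the labelled knockout clones, or, for SDHD, because motifs of all 3 factors lay in its window, the ERR half-site beginning 11 bases past the start. They are the 250 bases before the RefSeq start (GRCh38.p14), 5′ to 3′ on the gene's strand, with NRF1 motifs (GCGCA, any base, then GCGC) and GABP motifs (CCGGAAGT, or its reverse complement) in capitals. SDHD, a membrane anchor of complex II, lies at chr11:112086623-112086872 on the + strand, with an NRF1 motif beginning 110 bases and a GABP motif 78 bases before the start.
SDHD: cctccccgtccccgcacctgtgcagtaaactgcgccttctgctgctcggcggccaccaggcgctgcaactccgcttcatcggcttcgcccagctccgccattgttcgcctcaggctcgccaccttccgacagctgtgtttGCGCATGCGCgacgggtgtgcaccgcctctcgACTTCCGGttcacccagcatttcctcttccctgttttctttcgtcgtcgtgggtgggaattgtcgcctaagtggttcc
UQCRH, the hinge protein of complex III, lies at chr1:46303448-46303697 on the + strand, with a GABP motif 47 bases before the start.
UQCRH: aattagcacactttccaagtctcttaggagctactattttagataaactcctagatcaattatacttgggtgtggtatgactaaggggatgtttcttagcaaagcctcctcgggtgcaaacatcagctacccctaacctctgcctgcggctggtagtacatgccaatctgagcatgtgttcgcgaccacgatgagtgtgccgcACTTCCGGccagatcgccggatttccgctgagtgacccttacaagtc
COX5B, a zinc-binding subunit of complex IV, lies at chr2:97645812-97646061 on the + strand, with a GABP motif 37 bases before the start and another, not capitalised, that begins 5 bases before it and runs past it.
COX5B: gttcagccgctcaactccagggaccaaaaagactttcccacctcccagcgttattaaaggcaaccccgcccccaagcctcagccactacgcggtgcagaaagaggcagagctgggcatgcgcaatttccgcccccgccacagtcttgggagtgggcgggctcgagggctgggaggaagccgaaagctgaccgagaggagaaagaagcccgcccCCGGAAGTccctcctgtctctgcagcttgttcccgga
ATP5F1C, the gamma subunit and central stalk of the ATP synthase, lies at chr10:7787927-7788176 on the + strand, with an NRF1 motif 22 bases before the start.
ATP5F1C: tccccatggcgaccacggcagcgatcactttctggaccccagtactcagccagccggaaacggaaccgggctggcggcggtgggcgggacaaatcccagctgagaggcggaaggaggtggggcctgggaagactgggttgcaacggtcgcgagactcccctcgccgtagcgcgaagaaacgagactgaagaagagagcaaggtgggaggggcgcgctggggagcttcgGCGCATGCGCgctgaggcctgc
No 2 motifs overlapped in these 4 windows. RefSeq windows that also reach 50 bases past the start were found for 65 of the 80 genes, 78 windows in all. On either strand, 20.5% of them (16 windows) held the NRF1 motif, against 5.78% of all 35116 promoter windows. The GABP motif was in 15.4% (12 windows) against 4.14%, and the ERR half-site TGACCTTG in 6.41% (5 windows) against 1.28%. A match describes letters in the window, not a bound site. The 4 promoters shown all hold a motif, and they do not stand for the genes with the largest falls. ATP5MC3 (log2 difference −1.38 in H2023 oncospheres) and ATP5MC1 (−0.72 in A549 normal culture) fell most there. Neither was among the genes found to hold a motif, whether for want of a window or of a match. A link between motifs and transcript differences was not tested.

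Levels of the 80 transcripts spanned a wide range when averaged over the 16 libraries. Complex I genes had a median of 127.76 TPM, from 17.81 TPM for NDUFV3 to 435.98 TPM for NDUFS5, both accessory subunits. The 4 complex II genes had a median of 122.93 TPM, with SDHD lowest at 78.09 TPM and SDHC, the other membrane anchor, highest at 172.51 TPM. Complex III genes ran from UQCRHL at 5.32 TPM to UQCRH at 432.08 TPM, with a median of 168.21 TPM. The median was highest in complex IV, at 458.11 TPM, where NDUFA4 was lowest (109.80 TPM) and COX6B1 highest (761.22 TPM). Complex V genes had a median of 301.48 TPM, from ATP5F1E, the epsilon subunit, at 63.12 TPM to ATP5F1B, the catalytic beta subunit, at 851.41 TPM. NDUFA4L2, which is known to be induced by hypoxia, was the lowest of the 80 at 1.85 TPM.

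The largest knockout difference was in H2023 oncospheres, where subunit transcripts of all 5 complexes were lower in the labelled knockout clone. Their summed level was 18105 and 18571 TPM in wild type and 14368 and 13286 TPM in the labelled knockout libraries. The groups did not overlap, and the means differed by −24.6% (−25.7% when TPM was rescaled without the mitochondrially encoded genes). By complex, the mean sum differed by −18.8% for complex I, −31.6% for complex II, −30.9% for complex III, −23.9% for complex IV and −28.4% for complex V. The summed level of the 13 subunits encoded in mitochondrial DNA differed by −3.81%. These are shares of the RNA measured, and fewer cells of a type and less RNA per cell cannot be told apart. The epithelial marker KRT8 was higher in the same labelled knockout libraries, at 3712.77 and 3828.01 TPM against 1892.40 and 1883.14 TPM, and limma called 0 of the 6 epithelial markers (2 higher in the authors' deposited table and 2 higher at an unadjusted p under 0.05). Its part in the result was not tested.

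**Figure D1:**
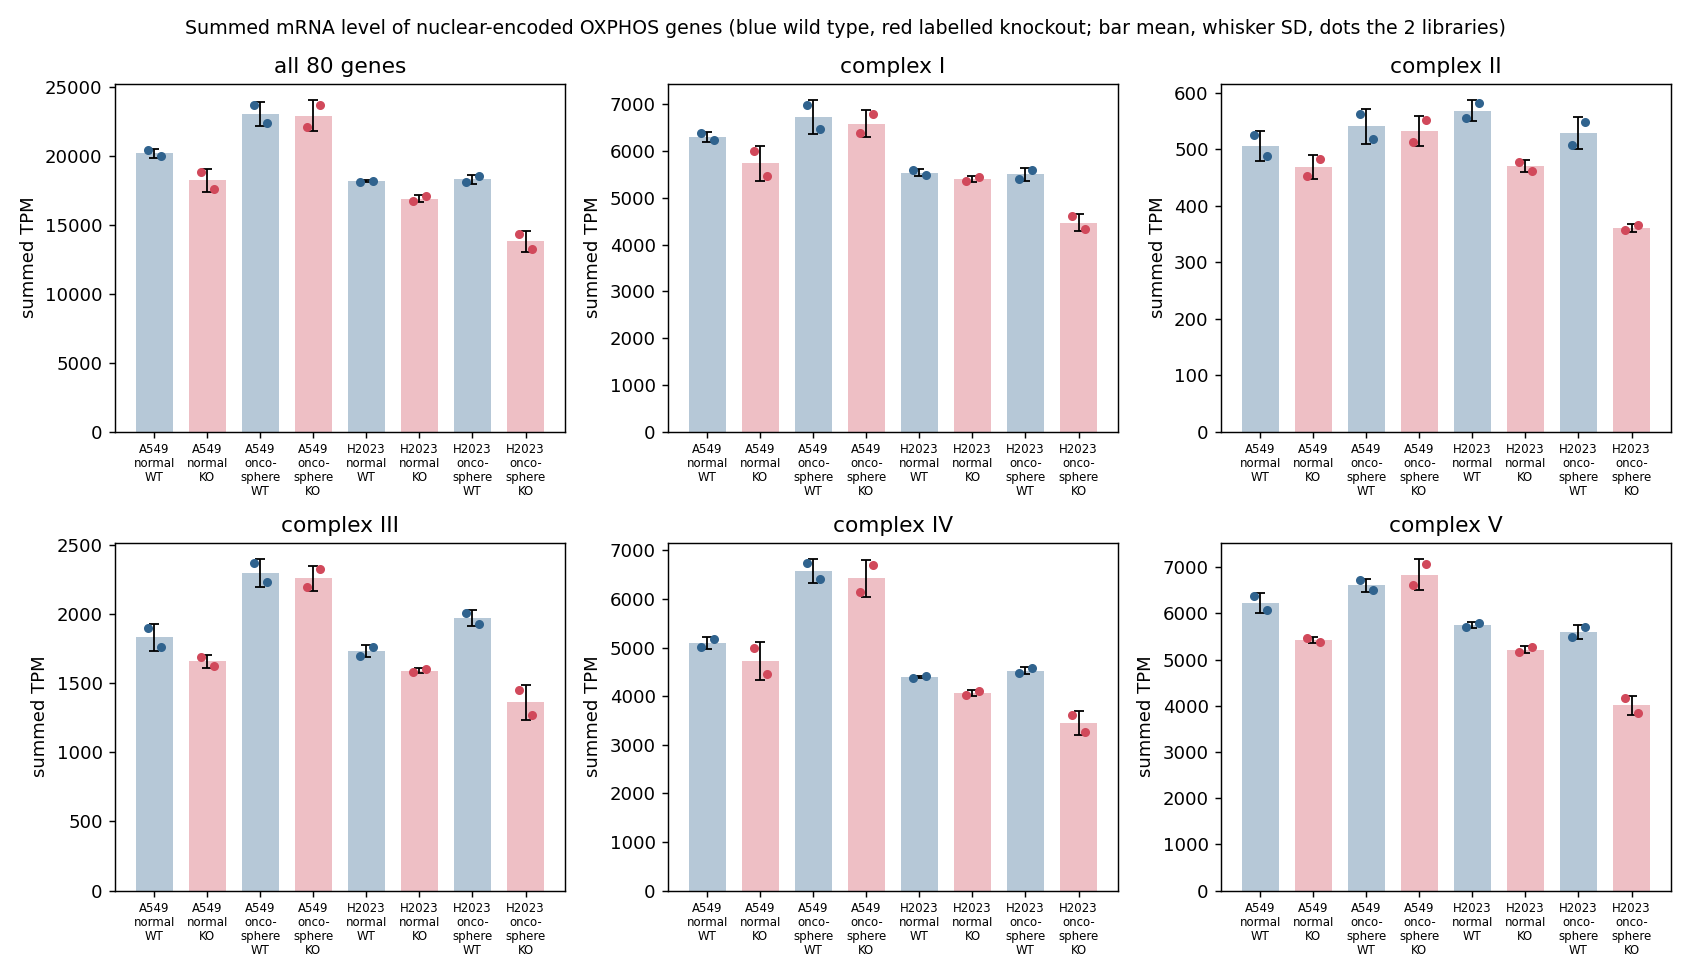
Summed TPM (vertical axis) of all 80 genes and of the genes of each complex, by line, culture and genotype label, with bars at the mean, whiskers of 1 SD and a dot per library (n = 2). In H2023 oncospheres the labelled knockout libraries lie below both wild-type libraries for every complex; in A549 oncospheres the genotypes overlap for every complex.

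Gene by gene, the difference was one of many moderate values. Each gene was tested with limma on log2(TPM + 1), with Benjamini-Hochberg adjustment over all 18227 genes, and a fold change is given on that scale, which understates changes of low genes. Of the 80 genes 76 were lower, with a median log2 difference of −0.36 against 0.06 over all genes. Both labelled knockout libraries lay below both wild-type libraries for 66 of 80 genes, as for 18.9% of all genes. They lay above both for 1 gene, as for 28.6% of all genes. No gene passed an adjusted p of 0.05 in limma with these 4 libraries (0 of 80, and 0% of all genes, smallest adjusted p = 0.165). At an unadjusted p under 0.05, 40 were lower and 0 higher, against 6.39% and 9.13% of all genes. In the authors' deposited table of this comparison, 21 of the 80 genes were lower and 0 higher at adjusted p under 0.05, against 2.85% and 2.22% of all genes. When the spread was estimated from all 8 H2023 libraries, limma called 13 lower and 0 higher, against 0.746% and 0.796% of all genes. Leaving out any 1 of the 4 libraries left 0 calls, with the median between −0.39 and −0.32.

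**Figure D2:**
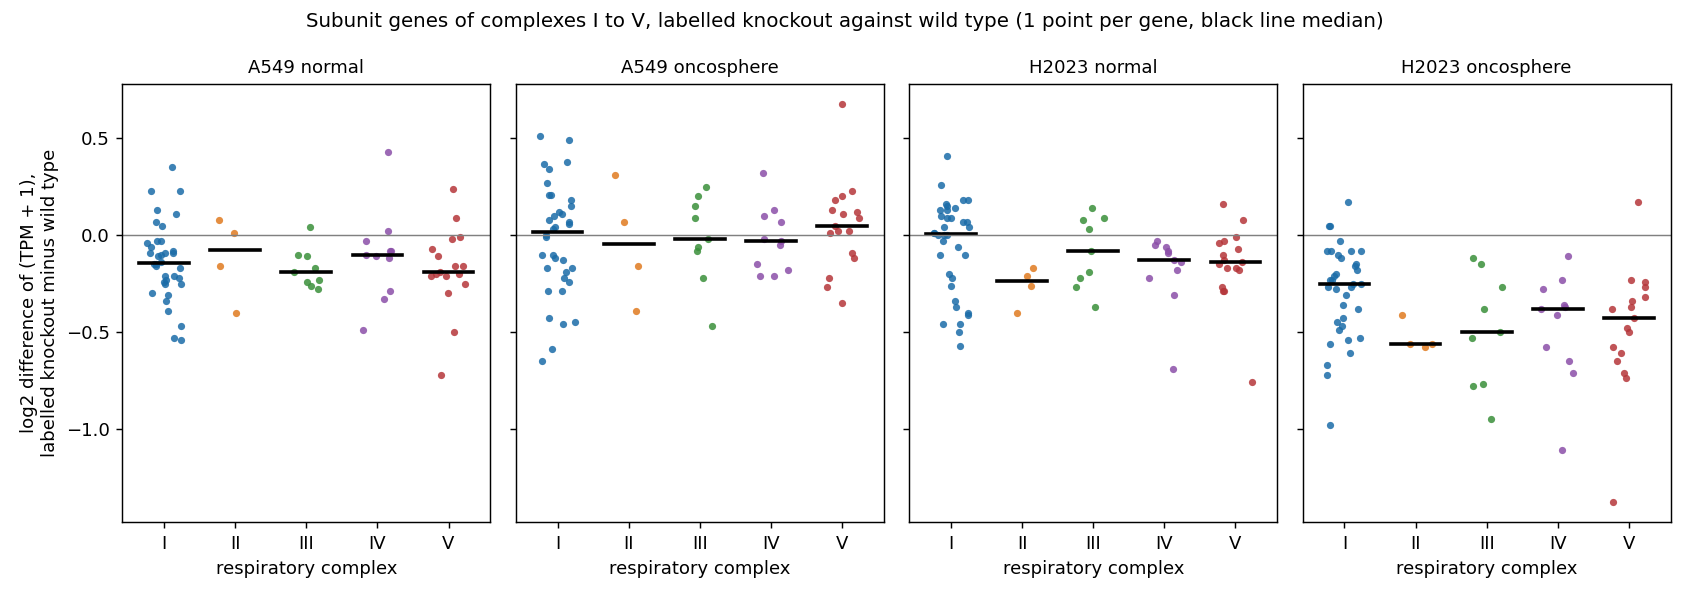
Log2 difference of (TPM + 1) between labelled knockout and wild type (vertical axis) for the subunit genes of complexes I to V (horizontal axis) in the 4 line and culture settings, with 1 point per gene and a line at the median. In H2023 oncospheres every median lies below 0, from −0.25 for complex I to −0.56 for complex II; in A549 oncospheres all 5 lie between −0.05 and 0.05.

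Complex I differed among its own members in H2023 oncospheres. NDUFB3, an accessory subunit of the membrane arm, was at 119.47 and 147.26 TPM in wild type and 64.02 and 69.41 TPM in the labelled knockout libraries (log2 difference −0.98, SE 0.14). In the authors' deposited table it was −1.06 with an adjusted p of 5.18e-04. NDUFA6, an accessory subunit of the matrix arm, differed by −0.72 (SE 0.09). Among the core subunits, which carry the flavin and the iron-sulphur clusters, NDUFS1 differed by −0.67 (SE 0.13). The core subunits NDUFV1 and NDUFV2, which form the NADH-oxidising end, differed by −0.15 (SE 0.10) and 0.05 (SE 0.14). NDUFV2 overlapped between the groups, with 161.28 and 169.38 TPM in wild type and 153.10 and 190.36 TPM in the labelled knockout libraries. NDUFB6 was the 1 gene of the 80 with both labelled knockout values (46.98 and 43.82 TPM) above both wild-type values (41.26 and 39.01 TPM). In limma's 4-library fit the adjusted p of these 6 genes was 0.21 or more.

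All 4 genes of complex II were lower by similar amounts. SDHA, the flavoprotein that oxidises succinate, had 77.06 and 84.75 TPM in wild type and 56.13 and 52.68 TPM in the labelled knockout libraries (−0.56, SE 0.10). SDHB, the iron-sulphur subunit, had 163.26 and 180.11 against 115.43 and 112.73 TPM (−0.58, SE 0.10). The anchors SDHC and SDHD differed by −0.56 (SE 0.10) and −0.41 (SE 0.11). The groups did not overlap for any of the 4, and the authors' deposited table gave adjusted p of 0.0091 for SDHA, 0.0091 for SDHB and 0.0435 for SDHC.

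In complex III all 9 genes were lower, and UQCRH stood lowest. It had 546.68 and 577.19 TPM in wild type and 312.77 and 267.80 TPM in the labelled knockout libraries (−0.95, SE 0.13). The authors' deposited table gave −1.01, adjusted p 1.81e-05. UQCR10, a small membrane subunit, differed by −0.77 (SE 0.12). The near-identical copy UQCRHL went the same way at a far lower level, with 3.48 against 6.68 TPM on average (SD 0.80 and 0.76, n = 2 each).

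COX5B had the lowest value of the 11 complex IV genes, all of which were lower. Wild type had 140.82 and 162.32 TPM and the labelled knockout libraries 69.36 and 69.67 TPM (−1.11, SE 0.11), and the authors' deposited table gave −1.20 with an adjusted p of 1.31e-06. COX7B, a small membrane subunit, differed by −0.71 (SE 0.15), COX6C by −0.65 (SE 0.11) and NDUFA4, once assigned to complex I, by −0.58 (SE 0.11). COX4I1, the largest nuclear-encoded subunit, had 616.80 and 744.45 against 529.87 and 492.42 TPM (−0.41, SE 0.15).

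The ATP synthase held the gene with the largest difference of the 80. ATP5MC3, 1 of 3 genes that encode the same mature c-ring subunit, had 220.31 and 205.67 TPM in wild type and 94.55 and 69.80 TPM in the labelled knockout libraries (−1.38, SE 0.18). Its value in the authors' deposited table was −1.42 with an adjusted p of 3.82e-09. The c-ring gene ATP5MC1 was at 288.21 and 336.76 against 197.35 and 181.80 TPM. The third c-ring gene, ATP5MC2, was not lower, at 395.29 and 309.78 against 426.69 and 363.38 TPM, which overlapped. ATP5PB, of the peripheral stalk, differed by −0.74 (SE 0.10). The catalytic beta subunit ATP5F1B had 781.49 and 819.81 against 528.56 and 541.51 TPM (−0.58, SE 0.11), and the alpha subunit ATP5F1A differed by −0.38 (SE 0.10). Outside the complexes proper, the inhibitor ATP5IF1 differed by −0.24 (SE 0.09) and COX7A2L by −0.13 (SE 0.11).

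In H2023 normal culture the same clone showed smaller differences. Summed TPM was 18125 and 18230 in wild type and 16761 and 17093 in the labelled knockout libraries, a mean difference of −6.88% without overlap, from −2.41% for complex I to −17.3% for complex II. The median log2 difference was −0.09 against 0.01 over all genes. Limma called 0 of 80 genes, and 0% of all genes (smallest adjusted p = 0.102). At an unadjusted p under 0.05 it had 18 lower and 1 higher, against 9.43% and 8.75% of all genes, and the authors' deposited table had 8 lower and 0 higher at adjusted p under 0.05, against 6.97% and 3.84%. Both labelled knockout libraries lay below both wild-type libraries for 40 genes and above both for 12, against 24.5% and 26.1% of all genes.

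ATP5MC3 and COX5B again led. ATP5MC3 had 165.19 and 196.20 TPM in wild type and 103.58 and 108.47 TPM in the labelled knockout libraries (−0.76, SE 0.11, limma adjusted p = 0.129). COX5B had 118.69 and 138.27 against 74.91 and 83.59 TPM (−0.69, SE 0.11, limma adjusted p = 0.148). The groups were separate for both genes, and the authors' deposited table gave adjusted p of 1.30e-05 and 0.00143. Genes called there also included NDUFA10, NDUFA5, NDUFS1, SDHC and UQCRH. Not every core gene was low: UQCRC1, a core protein of complex III, had 166.57 and 170.64 TPM in wild type and 189.51 and 181.99 TPM in the labelled knockout libraries (log2 difference 0.14).

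The difference between the oncosphere and normal-culture effects in H2023 was tested directly as an interaction over 8 libraries. The knockout effect was lower in oncospheres for 76 of 80 genes, with a median of −0.27 against 0.06 over all genes. Limma called 0 of the 80 and 0% of all genes (smallest adjusted p = 0.193). At an unadjusted p under 0.05, 23 genes were lower and 0 higher, against 2.55% and 4.55% of all genes.

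In A549 normal culture the labelled knockout clone also had less subunit RNA, by a smaller margin. Summed TPM was 20436 and 19998 in wild type and 18842 and 17659 in the labelled knockout libraries, a mean difference of −9.73% without overlap (−7.48% when rescaled without the mitochondrially encoded genes). In the same comparison limma called 4 of 6 epithelial markers lower, with KRT8 at 3625.75 and 3568.74 TPM in wild type and 1258.78 and 765.43 TPM in the labelled knockout libraries, and their part in the result was not tested. Limma called 4 of 80 genes lower and 0 higher, against 6.28% and 4.54% of all genes, a share of lower calls near that of all genes. The median log2 difference was −0.14 against −0.03 over all genes. The authors' deposited table called 5 lower and 3 higher, against 10.9% and 11.2%. Separate pairs of libraries were lower for 42 genes and higher for 7, against 34.6% and 27.2%. All 4 limma calls were lost when any 1 of the 4 libraries was left out, as were the calls over all genes. The median was then between −0.18 and −0.11. With the spread taken from 8 libraries 7 were lower and 1 higher, against 8.83% and 6.52% of all genes.

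ATP5MC1 had the largest fall, from 476.51 and 402.29 TPM to 287.85 and 245.11 TPM (−0.72, SE 0.14, limma adjusted p = 0.0384). NDUFV1, the flavoprotein that takes electrons from NADH, fell from 181.10 and 212.04 to 135.91 and 135.56 TPM (−0.53, SE 0.11, limma adjusted p = 0.0451). ATP5F1C fell from 341.95 and 337.79 to 240.99 and 240.69 TPM (−0.50, SE 0.09, limma adjusted p = 0.0343). NDUFC2, whose reads may be divided with its read-through locus, was the other gene called (−0.47, SE 0.09, limma adjusted p = 0.035). The groups were separate for all 4. COX5B and NDUFS1 were higher instead: COX5B had 183.71 and 176.58 TPM in wild type and 261.96 and 224.47 TPM in the labelled knockout libraries (0.43, SE 0.11, limma adjusted p = 0.0712). In the authors' deposited table COX5B was 0.50 with an adjusted p of 0.00836, and NDUFS1 0.48 with an adjusted p of 0.00302.

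In A549 oncospheres the summed level did not differ beyond the spread. It was 23708 and 22428 TPM in wild type and 22146 and 23741 TPM in the labelled knockout libraries, which overlapped, with a mean difference of −0.542%. CD68, a macrophage marker and 1 of 4 other-cell markers, fell there, from 178.89 and 117.45 TPM in wild type to 44.49 and 29.66 TPM in the labelled knockout libraries. Limma also called 2 of 6 epithelial markers lower, KRT19 (46.81 and 101.25 against 3.29 and 5.92 TPM) and EPCAM (9.40 and 7.94 against 0.82 and 1.03 TPM). The part of these markers in the results was not tested. Limma called 4 of 80 genes lower and 3 higher, against 7.2% and 6.04% of all genes, and the median log2 difference was 0.01 against 0.03. The authors' deposited table called 6 lower and 3 higher, against 11.4% and 9.29%. Separate pairs were lower for 26 genes and higher for 25, against 27.8% and 32.7%. The limma calls were lost when any 1 of the 4 libraries was left out, as were nearly all calls over all genes. The median was then between −0.06 and 0.06. With the 8-library spread 7 were lower and 5 higher, against 10.1% and 9.39% of all genes.

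The 4 genes that fell were NDUFV2, NDUFS4, UQCRC2 and NDUFA4L2. NDUFV2, an iron-sulphur subunit beside NDUFV1, fell from 250.95 and 237.74 to 155.43 and 155.34 TPM (−0.65, SE 0.09, limma adjusted p = 0.0141). NDUFS4, an accessory subunit needed for a stable complex I, fell from 156.11 and 132.95 to 98.39 and 93.04 TPM (−0.59, SE 0.12, limma adjusted p = 0.0336). UQCRC2, a core protein of complex III, fell from 352.09 and 320.00 to 248.88 and 233.85 TPM (−0.47, SE 0.10, limma adjusted p = 0.0425). These 3 were separate between the groups. NDUFA4L2 was at 8.07 and 3.46 TPM in wild type and 1.18 and 0.52 TPM in the labelled knockout libraries (−1.80, SE 0.39, limma adjusted p = 0.0425), low levels with a wide spread.

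The 3 rises were ATP5MC3, NDUFB3 and NDUFA10. ATP5MC3 went from 363.39 and 331.07 to 533.95 and 582.55 TPM (0.68, SE 0.11, limma adjusted p = 0.0195). NDUFB3 went from 169.67 and 180.20 to 243.93 and 254.34 TPM (0.51, SE 0.09, limma adjusted p = 0.0285). NDUFA10, an accessory subunit of complex I, went from 112.33 and 111.70 to 151.18 and 164.68 TPM (0.49, SE 0.10, limma adjusted p = 0.0326). ATP5MC3 and NDUFB3 were thus higher in this clone and, as given above, lower in the H2023 clone.

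Those genes share a chromosome arm. Of the 80 genes 6 lie on chromosome 2 (GRCh38): COX5B from 97646040 to 97648383, ATP5MC3 from 175176258 to 175184607, NDUFB3 from 201071433 to 201085750, NDUFS1 from 206114817 to 206159603 and NDUFA10 from 239892450 to 240025402 on the long arm, and COX7A2L from 42333546 to 42425088 on the short arm. In the A549 clone the 5 long-arm genes were all higher than in wild type, with a median log2 difference of 0.24 in normal culture and 0.49 in oncospheres, while COX7A2L was at −0.06 and −0.31. In the H2023 clone all 5 were lower, with a median of −0.50 in normal culture and −0.98 in oncospheres, and the short-arm gene COX7A2L was lower as well, at −0.31 and −0.13.

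Other genes of the same arm shifted with them. Among 558 other genes that started at or past base 90000000 of chromosome 2 and had a mean of at least 1 TPM, the median log2 difference in A549 was 0.34 in normal culture and 0.41 in oncospheres, with 79.4% and 77.8% higher. Before that base, the 382 genes had medians of −0.08 and 0.03. In H2023 the 558 genes had medians of −0.27 and −0.25, with 16.1% and 21.7% higher, and the 382 genes −0.16 and −0.14. Pooled over all other chromosomes, 13877 genes had medians of −0.07, 0.03, 0.03 and 0.09 in the same order of settings. In A549 normal culture the lowest medians of other genes were −0.17 on chromosome 8 and −0.15 on chromosomes 4 and 18. The highest outside chromosome 2 was 0.06, on chromosome 19. In H2023 other chromosomes also stood away from 0. In normal culture the other genes had medians of −0.18 on chromosomes 1 and 22, −0.15 on chromosome 7 and 0.22 on chromosome 6. On chromosomes 1, 22 and 7, 0 of 8, 0 of 2 and 0 of 4 subunit genes were higher, against 24.8%, 20.7% and 30.3% of the other genes. On chromosomes X and 17, 0 of 3 and 0 of 2 were higher, although 63.6% and 59.5% of the other genes were. On chromosome 14, 2 of 2 were higher, against 68.8%. In oncospheres the medians were −0.11, −0.12 and −0.07 for the other genes of chromosomes 1, 22 and 7, and −0.57, −0.74 and −0.56 for the subunit genes there. On chromosomes 17, 8 and 10 the subunit medians were −0.53, −0.50 and −0.47, while the other genes had 0.10, 0.05 and 0.03. On chromosomes 18 and 19 the subunit medians were −0.16 and −0.17, with 0.15 and 0.20 for the other genes. The number of copies of these chromosomes in each clone was not measured, and the part of chromosomal position in the results was not tested. Outside chromosome 2, the 74 remaining subunit genes had a median of −0.35 in H2023 oncospheres with 4 higher. In A549 normal culture, A549 oncospheres and H2023 normal culture the 74 genes had medians of −0.16, −0.01 and −0.07.

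**Figure D3:**
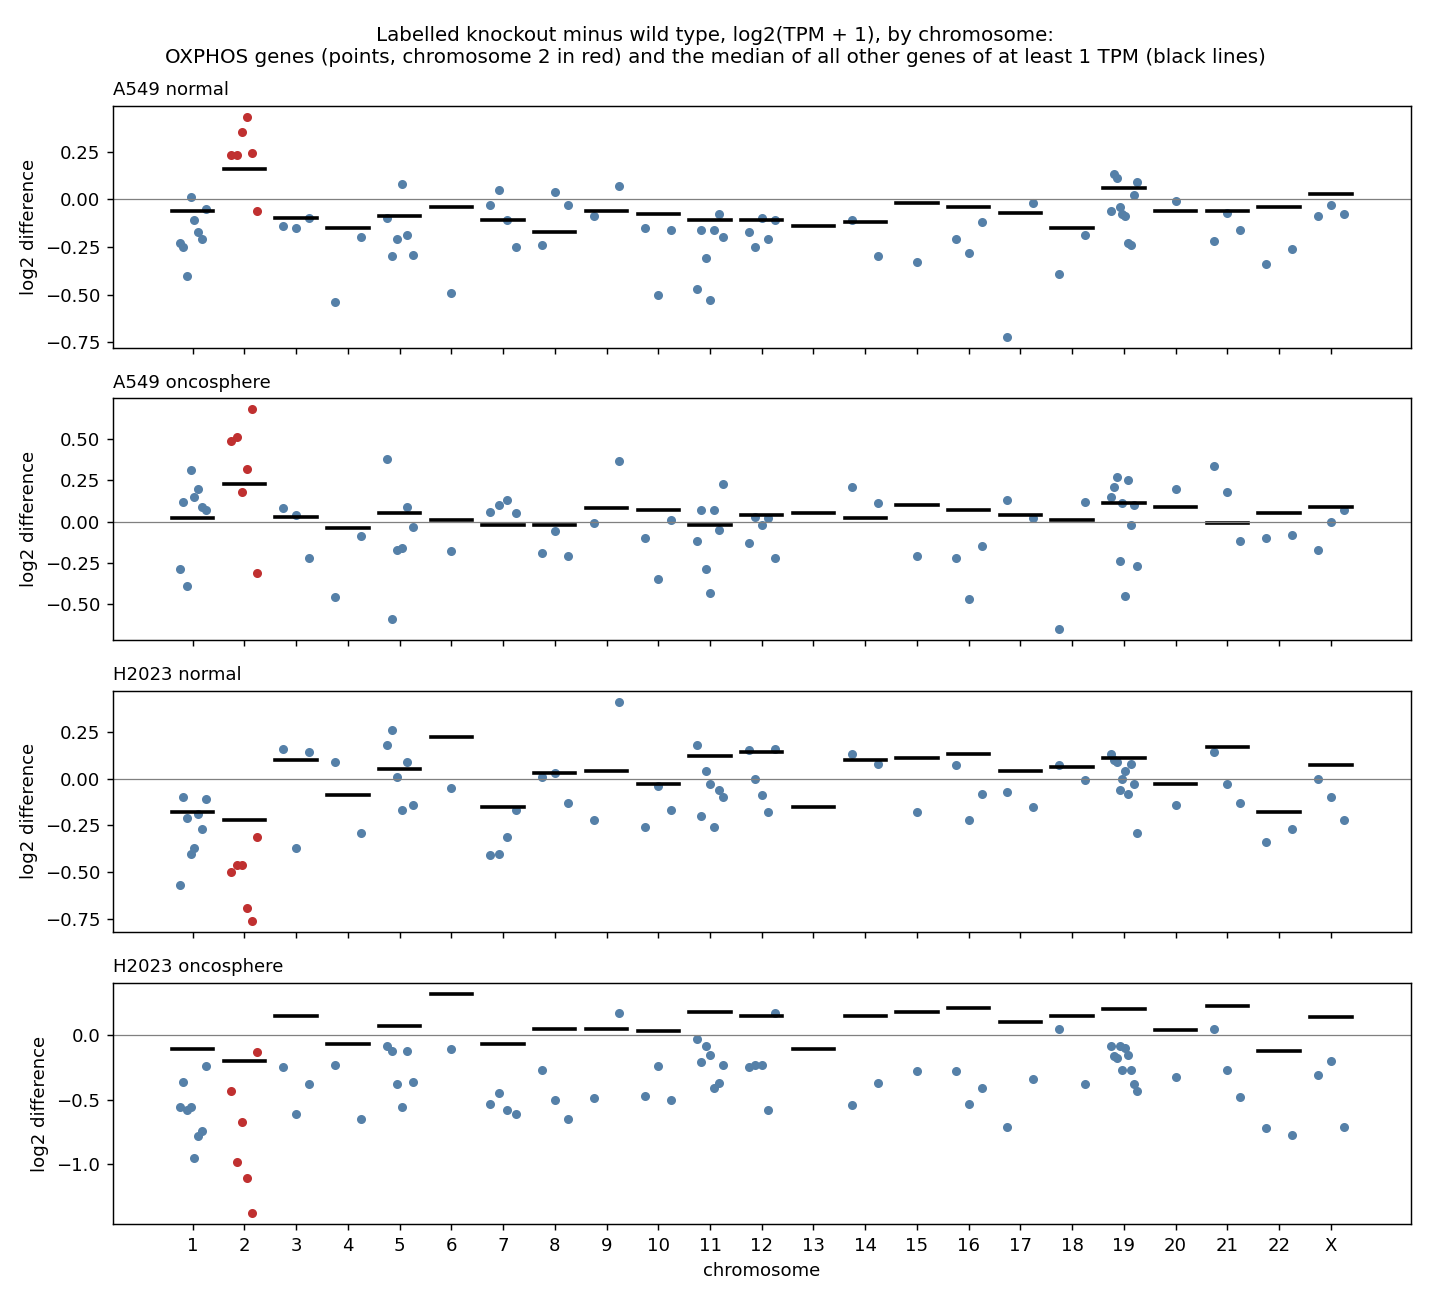
Log2 difference of (TPM + 1) between labelled knockout and wild type (vertical axis) for each subunit gene, arranged by chromosome (horizontal axis), in the 4 settings, with a black line at the median of the chromosome's other genes of at least 1 TPM (NDUFA4L2 left out). The long-arm genes of chromosome 2 lie above 0 in both A549 settings and below 0 in both H2023 settings.

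The interaction between culture and knockout in A549 called 2 of 80 genes, 1 higher and 1 lower, against 3.52% and 3.13% of all genes. The median was 0.13 against 0.05. For ATP5MC1 the knockout effect was 0.85 higher in oncospheres than in normal culture (SE 0.18, limma adjusted p = 0.0353). For NDUFA4L2 it was −2.08 (SE 0.50, limma adjusted p = 0.0478), a call that was lost with a pseudocount of 0.1 or the replicate number as a block. Each call was lost on leaving out 7 of the 8 libraries in turn, the exception being wild-type oncosphere replicate 2 for NDUFA4L2 and wild-type normal replicate 2 for ATP5MC1. Of 6 epithelial markers, 3 were called higher and 1 lower in the same test, and their part in the result was not tested.

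Transcripts of regulators and of neighbouring pathways were read beside the subunits. PPARGC1A in H2023 had 10.78 and 19.60 TPM in wild type and 0.21 and 0.16 TPM in the labelled knockout libraries in normal culture. In oncospheres it had 25.35 and 58.59 against 1.42 and 4.02 TPM. The labelled knockout values lay far below wild type in both cultures, with log2 differences of −3.72 (SE 0.32, limma adjusted p = 0.11) and −3.51 (SE 0.58, limma adjusted p = 0.231). The authors' deposited table gave PPARGC1A adjusted p of 4.17e-17 and 0.00132. In A549 PPARGC1A overlapped in oncospheres, with 18.36 and 14.37 TPM in wild type and 16.67 and 15.98 TPM in the labelled knockout libraries. In A549 normal culture it had 4.66 and 8.01 against 3.03 and 4.54 TPM, separate by a small margin (−0.60, SE 0.31, limma adjusted p = 0.25).

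ESRRA, which encodes the receptor ERR-alpha, was at 37.84 and 38.40 TPM in wild-type H2023 oncospheres and at 22.20 and 21.25 TPM in the labelled knockout libraries (−0.78, SE 0.10, limma adjusted p = 0.21, against 0.00193 in the authors' deposited table). In A549 normal culture ESRRA fell from 51.04 and 44.05 to 27.64 and 29.67 TPM (−0.71, SE 0.12, limma adjusted p = 0.028). In A549 oncospheres it overlapped. TFAM, the packaging and transcription factor of mitochondrial DNA, was at 56.78 and 47.11 against 43.99 and 42.85 TPM in H2023 oncospheres (−0.25, SE 0.13, limma adjusted p = 0.435). Of 13 biogenesis regulators in all, limma called 1 lower in A549 normal culture (ESRRA), 1 lower in A549 oncospheres (ESRRG) and 0 in either H2023 comparison. The authors' deposited tables called 1 lower in each A549 comparison and 2 lower in each H2023 comparison, with 0 higher. Of all genes they called 10.9% and 11.4% lower in A549 normal culture and oncospheres, and 6.97% and 2.85% in H2023.

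**Figure D4:**
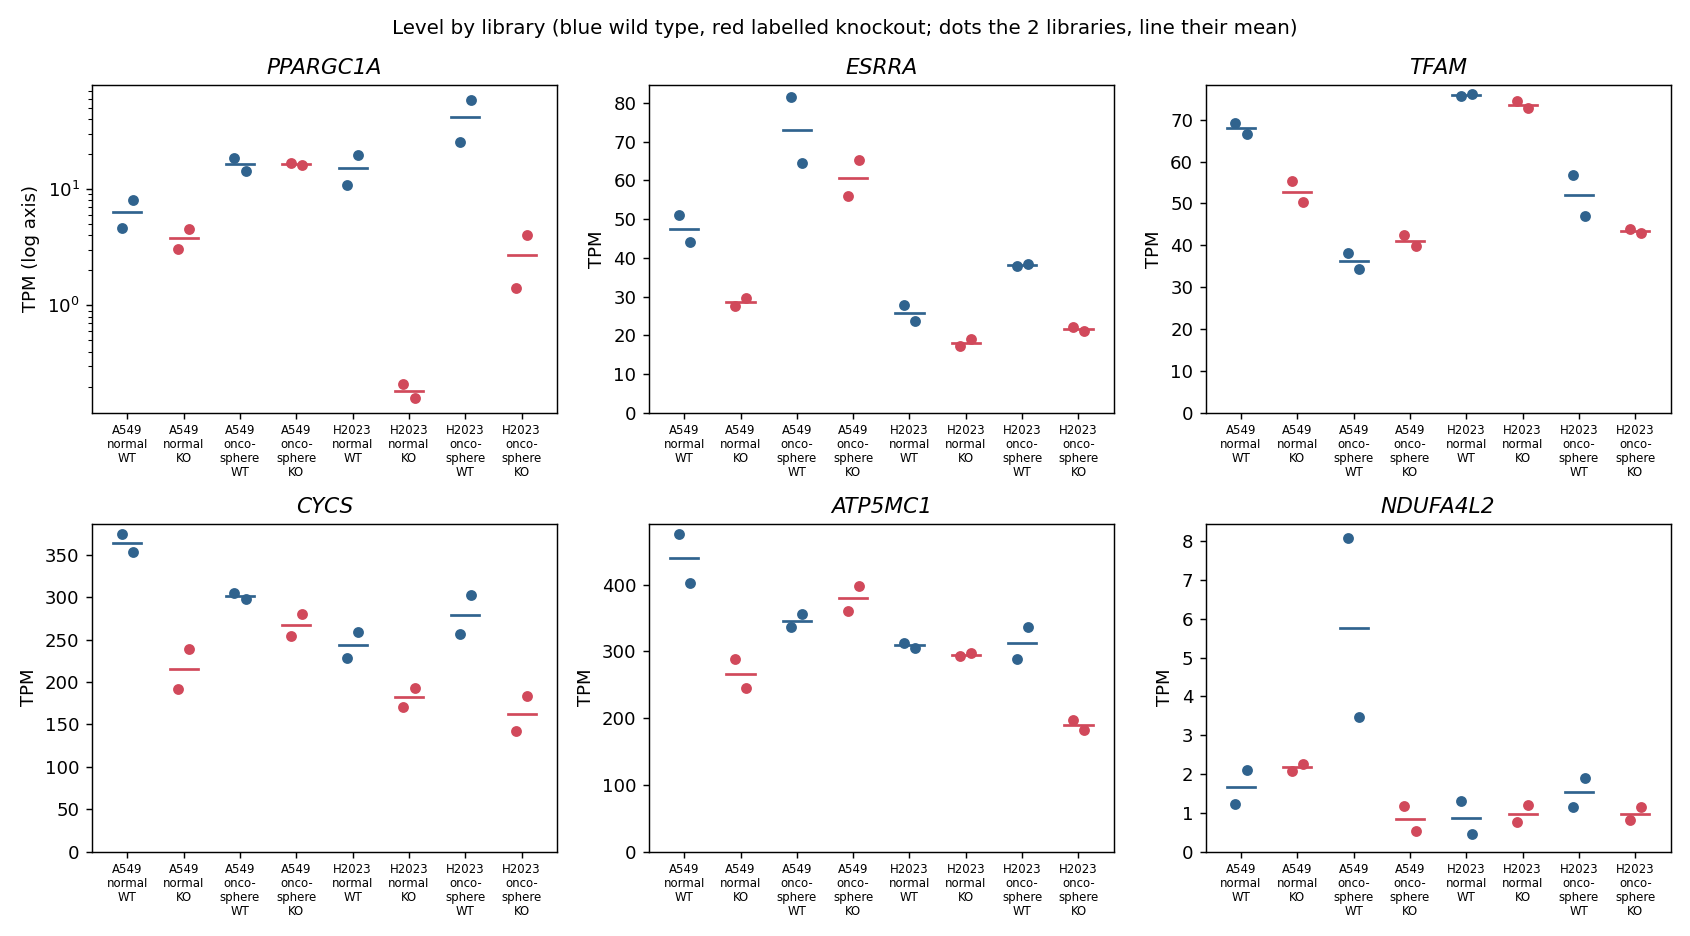
TPM (vertical axes, logarithmic for PPARGC1A and linear for the rest) of PPARGC1A, ESRRA, TFAM, CYCS, ATP5MC1 and NDUFA4L2 by line, culture and genotype label, wild type in blue and labelled knockout in red, with a dot per library and a line at the mean. PPARGC1A lies at 0.16 to 4.02 TPM in the H2023 labelled knockout libraries and at 10.78 TPM or above in H2023 wild type.

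Cytochrome c1 and cytochrome c, which the naming rule left out, were read as further subunits of the chain. CYC1 in H2023 oncospheres had 288.38 and 306.79 TPM in wild type and 168.29 and 162.84 TPM in the labelled knockout libraries (−0.84, SE 0.09, limma adjusted p = 0.208, against 2.08e-05 in the authors' deposited table). CYCS had 256.19 and 302.79 against 142.16 and 183.43 TPM (−0.78, SE 0.18, limma adjusted p = 0.239, against 0.00374). Both were thus lower with the 80 genes. They came from a list of 9 further genes, and the 5 with rows had a median of only −0.13 there. NDUFAB1, the acyl carrier protein of complex I, had 195.02 and 199.91 against 178.12 and 181.67 TPM. COX7B2, an alternative form of COX7B, overlapped, with 71.42 and 76.37 against 72.78 and 74.23 TPM. In A549 normal culture CYC1 fell by 0.62 (SE 0.12, limma adjusted p = 0.0378), CYCS fell by 0.76 (SE 0.14, limma adjusted p = 0.0322) and NDUFAB1 fell by 0.78 (SE 0.14, limma adjusted p = 0.0329).

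The 50 assembly factors of the complexes had a median of −0.05 in H2023 oncospheres, with 27 lower and 23 higher. Their libraries were separate and lower for 18 and separate and higher for 7, against 18.9% and 28.6% of all genes, and limma called 0 (6 lower and 1 higher at an unadjusted p under 0.05, and 1 lower in the authors' deposited table). The difference between this list and the subunits was not tested. The 14 citric acid cycle genes had a median of −0.26 with 13 lower. Among them SUCLG1, of succinyl-CoA ligase, had −0.74 (SE 0.09), while CS, citrate synthase, was at −0.04 (SE 0.08). The authors' deposited table called 4 of the 14 lower. The 12 import, chaperone and channel genes of mitochondria had a median of −0.28, with 11 lower and 2 called lower in the authors' deposited table. The 13 glycolysis genes had a median of −0.23, with 12 lower, and the authors' deposited table called 3 lower. For each of these 3 lists limma called 0 genes. At an unadjusted p under 0.05 in limma, 5, 4 and 3 were lower and 0 higher, against 6.39% and 9.13% of all genes. In the authors' deposited table of this comparison 2.85% of all genes were called lower. In A549 normal culture the glycolysis genes went the other way from the subunits, with a median of 0.47 and 12 of 13 higher. Limma called 1 of them, SLC2A1, a glucose transporter (1.15, SE 0.21, limma adjusted p = 0.034), against 4.54% of all genes called higher. The authors' deposited table called 9 higher, against 11.2% of all genes. The 13 mitochondrially encoded subunits had medians between −0.21 and 0.15 in the 4 knockout comparisons, and limma called 0 of them in any (0 at an unadjusted p under 0.05 in all 4). The authors' deposited table called 2 lower in A549 oncospheres, against 11.4% of all genes. In H2023 oncospheres it called 1 higher and 1 lower, against 2.22% and 2.85%.

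Oncosphere culture went with more subunit RNA in A549. Summed TPM went from 20436 and 19998 to 23708 and 22428 in wild type, and from 18842 and 17659 to 22146 and 23741 in the labelled knockout libraries, without overlap. In wild type limma, fitted on the 8 libraries of the line, called 19 of 80 genes higher and 2 lower, against 19% and 21.6% of all genes (40.6% in either direction). Both oncosphere libraries lay above both normal ones for 43 genes and below both for 12, against 33.7% and 37.5% of all genes. The median log2 difference was 0.15 against −0.01, and 5 of 11 complex IV genes were called higher, with a median of 0.42. In the labelled knockout libraries 30 were called higher and 0 lower, against 10.9% and 9.87% of all genes, with a median of 0.33 against −0.01. There the libraries were separate and higher for 57 genes and separate and lower for 7, against 30.6% and 32% of all genes. Rescaled without the mitochondrially encoded genes, 38 were called higher in wild type and 40 in the labelled knockout, with 0 lower in either, against 22.9% and 12.6% of all genes higher and 16.9% and 8.23% lower. Without 1 library in turn, wild type had 9 calls without normal replicate 1, 14 without normal replicate 2, 10 without oncosphere replicate 1 and 19 without oncosphere replicate 2, against 27%, 33.5%, 30.6% and 33.5% of all genes. The labelled knockout had 18 and 11 calls without normal replicates 1 and 2, and 10 and 8 without oncosphere replicates 1 and 2, against 11%, 11.6%, 11.1% and 13.4% of all genes. In wild type CD68 rose with culture, from 45.87 and 37.27 to 178.89 and 117.45 TPM, and limma called 2 of 4 other-cell markers and 3 of 6 epithelial markers higher. In the labelled knockout 1 of 4 other-cell markers was called higher and 1 lower, and 4 of 6 epithelial markers higher and 1 lower. Their part in the results was not tested.

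In wild-type A549 UQCRC2 rose from 200.08 and 199.09 to 352.09 and 320.00 TPM (0.75, SE 0.13, limma adjusted p = 0.00256), and COX6C from 342.98 and 352.81 to 581.32 and 532.81 TPM (0.68, SE 0.10, limma adjusted p = 0.00106). NDUFA4L2 rose from 1.22 and 2.10 to 8.07 and 3.46 TPM (1.28, SE 0.35, limma adjusted p = 0.0207). The complex I accessory genes NDUFV3 (−0.40, SE 0.12, limma adjusted p = 0.0272) and NDUFB10 (−0.36, SE 0.12, limma adjusted p = 0.0453) were the 2 that fell, and neither passed once TPM was rescaled without the mitochondrially encoded genes. In the labelled knockout libraries UQCR11, a small complex III subunit, rose from 110.41 and 85.40 to 199.01 and 208.60 TPM (1.06, SE 0.21, limma adjusted p = 0.0105). NDUFB5 rose from 67.76 and 81.84 to 122.47 and 125.20 TPM (0.73, SE 0.12, limma adjusted p = 0.0039), and COX7A2 from 217.34 and 168.56 to 321.52 and 298.19 TPM (0.69, SE 0.13, limma adjusted p = 0.00907). ATP5IF1 rose in both genotypes, by 0.54 and 0.66 on the log2 scale.

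In H2023 the culture difference depended on the scale. As deposited, wild-type sums were 18125 and 18230 TPM in normal culture and 18105 and 18571 TPM in oncospheres, which overlapped, and limma called 1 gene higher and 1 lower, against 3.96% and 17.4% of all genes. UQCRQ, a complex III subunit, rose from 196.27 and 217.06 to 324.56 and 259.77 TPM (0.49, SE 0.12, limma adjusted p = 0.0332). NDUFS8, an iron-sulphur subunit of complex I, fell from 186.39 and 186.48 to 130.14 and 136.98 TPM (−0.48, SE 0.08, limma adjusted p = 0.0103). No gene was called without normal replicate 1 or without normal replicate 2, against 2 and 3 without oncosphere replicates 1 and 2. Of all genes 9.43%, 9.31%, 14.4% and 11.2% were called in those fits. The median over the 80 genes was 0.02 against −0.18 over all genes. Rescaled without the mitochondrially encoded genes, which took 25% and 25.6% of TPM in these oncospheres and 10.3% and 12.6% in normal culture, 11 genes were called higher and 0 lower, with a median of 0.26. Against those counts stood 5.61% and 6.93% of all genes. The summed differences of complexes I, II and V changed sign with that rescaling, from −0.576%, −7.03% and −2.49% to 17.8%, 10.1% and 15.5%.

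In the H2023 labelled knockout libraries the sum went from 16761 and 17093 TPM to 14368 and 13286 TPM, without overlap. Limma called 0 higher and 28 lower, against 7.68% and 19.2% of all genes, with a median of −0.26 against −0.12. NDUFB6 fell from 67.79 and 82.46 to 46.98 and 43.82 TPM (−0.71, SE 0.14, limma adjusted p = 0.0139). UQCRC1 fell from 189.51 and 181.99 to 126.40 and 110.89 TPM (−0.65, SE 0.11, limma adjusted p = 0.0089), and ATP5MC1 from 292.44 and 297.69 to 197.35 and 181.80 TPM (−0.64, SE 0.10, limma adjusted p = 0.00604). By complex, 13 of 36, 2 of 4, 2 of 9, 2 of 11 and 9 of 17 genes of complexes I to V were lower. After rescaling without the mitochondrially encoded genes, 7 were lower and 2 higher, against 10.8% and 11.1% of all genes, and the median moved to −0.04. UQCRC1 (−0.42) and ATP5MC1 (−0.41) were still called, and NDUFB6 (−0.49, limma adjusted p = 0.0501) was not. With each library centred on its median, 10 were lower and 1 higher, against 12.7% and 11.8% of all genes, a share of lower calls near that of all genes. Leaving out normal replicates 1 or 2 left 7 calls each, and leaving out oncosphere replicates 1 or 2 left 17 and 8, against 11.5%, 12.5%, 17.4% and 15% of all genes. Of 6 epithelial markers, 1 was called higher and 3 lower between these cultures, and 3 lower in wild type, and their part in the results was not tested.

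**Figure D5:**
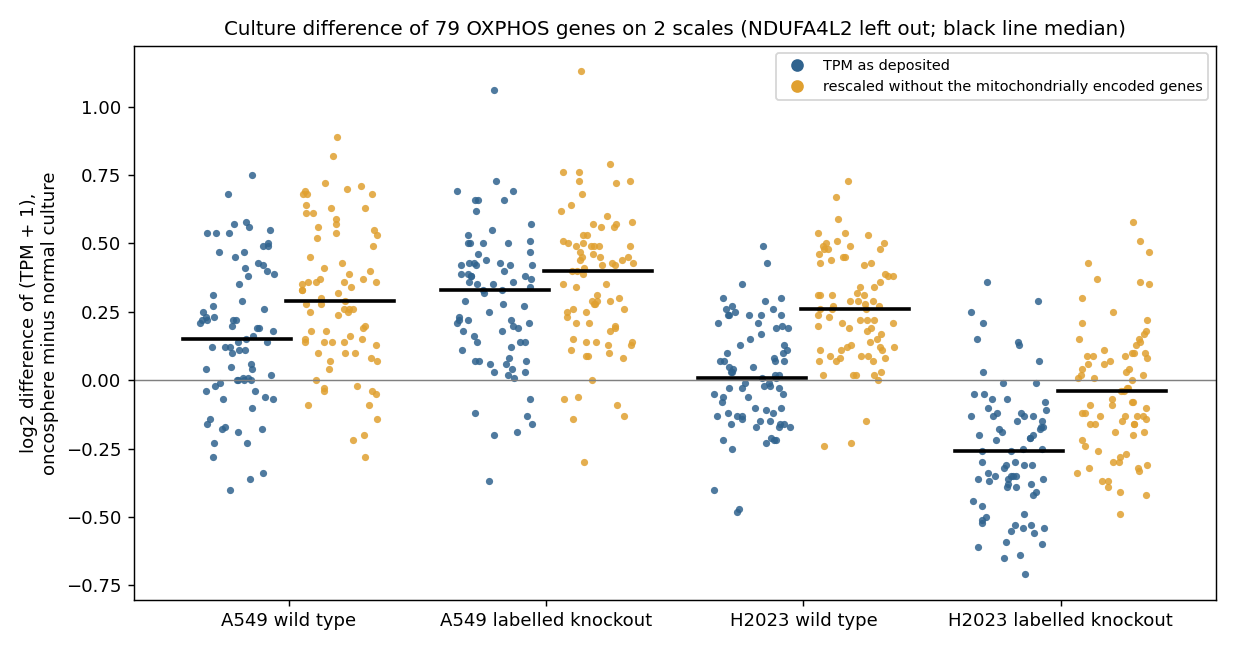
Log2 difference of (TPM + 1) between oncosphere and normal culture (vertical axis) for each subunit gene except NDUFA4L2, in the 4 combinations of line and genotype label, on TPM as deposited and on TPM rescaled without the mitochondrially encoded genes, with lines at the medians. Rescaling raises every group, and for H2023 wild type it moves the median from near 0 to 0.26.

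The culture differences of other mitochondrial lists were not all alike. The 13 mitochondrially encoded subunits were all higher in oncospheres in each of the 4 combinations, with medians of 0.77 in A549 wild type, 0.42 in the A549 labelled knockout, 1.34 in H2023 wild type and 1.24 in the H2023 labelled knockout, and 4, 1, 9 and 10 of them were called higher, against 19%, 10.9%, 3.96% and 7.68% of all genes. The 12 import, chaperone and channel genes went lower, with medians of −0.59, −0.16, −0.51 and −0.70 and 8, 0, 7 and 10 called lower, against 21.6%, 9.87%, 17.4% and 19.2% of all genes. TFAM fell in all 4 combinations, by 0.89, 0.35, 0.54 and 0.75 on the log2 scale (limma adjusted p = 4.34e-04, 0.0459, 0.0152 and 0.00387). The values of these lists and of TFAM are on TPM as deposited. On that scale the medians over all genes were −0.01, −0.01, −0.18 and −0.12 in the same order. PPARGC1A rose in A549, by 1.27 in wild type (SE 0.26, limma adjusted p = 0.00575) and 1.87 in the labelled knockout (SE 0.26, limma adjusted p = 0.00218). In H2023 its differences were 1.35 (SE 0.51) and 1.56 (SE 0.51), with limma adjusted p of 0.112 and 0.0691.

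Wild-type cells of the 2 lines differed in both directions among the subunit genes. In normal culture limma, fitted on all 16 libraries, called 10 of 80 genes higher and 29 lower in H2023 than in A549, against 26.6% and 14.9% of all genes. The median was −0.11 against 0.12. COX7B had 285.07 and 307.74 TPM in A549 and 127.38 and 146.97 TPM in H2023 (−1.11, SE 0.13, limma adjusted p = 3.29e-05). UQCRFS1, the Rieske iron-sulphur protein of complex III, had 122.67 and 132.82 against 58.13 and 61.27 TPM (−1.08, SE 0.11, limma adjusted p = 1.83e-05). NDUFA2, an accessory subunit of complex I, averaged 109.83 TPM (SD 11.68, n = 2) in A549 and 54.26 TPM (SD 3.86, n = 2) in H2023, with a limma adjusted p of 2.70e-04. In the other direction ATP5PO, of the peripheral stalk, had 186.65 and 198.28 TPM in A549 and 359.54 and 336.29 TPM in H2023 (0.85, SE 0.09, limma adjusted p = 1.37e-05). NDUFA8 (0.83, SE 0.11) and ATP5PB (0.56, SE 0.12) were higher too. With each library centred on its median, 6 genes were higher and 40 lower, against 17.4% and 24.3% of all genes.

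In oncospheres 40 genes were lower and 9 higher in H2023, against 24.4% and 23.4% of all genes, with a median of −0.29 against −0.01. COX5A, a complex IV subunit, had 611.87 and 569.48 TPM in A549 and 208.22 and 251.29 TPM in H2023 (−1.36, SE 0.13, limma adjusted p = 5.88e-06). COX7B differed by −1.34 (SE 0.13) and NDUFA4L2 by −1.35 (SE 0.34). Higher in H2023 were NDUFV3 (0.83, SE 0.13), NDUFA8 (0.56, SE 0.11) and NDUFB7 (0.52, SE 0.15). Summed over all 80 genes, wild-type H2023 differed from A549 by −10.1% in normal culture and −20.5% in oncospheres, where complex IV differed by −31.3%, and the libraries did not overlap.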

How the data were processed

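Poly(A)-selected, stranded RNA libraries of 16 samples were analysed from 4 deposited tables, 1 per line and culture, with 4 libraries each. The deposited TPM values were made by the authors with HISAT2 and StringTie on GRCh38, per the submitters' processing notes (versions not given in the sources used here). Per the file headers, the authors' tables also hold a mean expression signal, log2 fold changes with their errors, a test score, and p-values with adjusted p-values. Each table had 18361 rows. Identifiers on several rows (119) held identical values and were used once, which left 18227 genes. TPM carries no read depth, so no counting error is given.

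The test was limma 3.58.1 (R 4.3.3), run with its trend option on log2(TPM + 1), Benjamini-Hochberg adjusted over 18227 genes at 0.05, without a low-value filter, and all 80 genes were tested. Knockout was tested within a table (4 libraries), culture and its interaction with knockout within a line (8), and line over all 16. Levels set across tables rest on separately normalised tables. The test was run on simulated data in which some genes were changed by a known amount. That run does not show how often differences as small as most of those described here would be called. Alternatives were a pseudocount of 0.1, a mean of at least 1 TPM, rescaling without mitochondrially encoded genes, median-centring, a replicate block, other sets of libraries and leaving out each library. The genes named are the called members with up to 3 of the largest differences each way per comparison, fixed core members, and others named for a count or contrast after their values were seen. Sequences are from RefSeq (GRCh38.p14) and positions from GENCODE (GRCh38). Some genes that the rule names are not reported here. The members and gene lists were chosen with earlier results of these data known.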

Additional observations from a re-analysis of the deposited data

Results flagged for a closer look

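For 2 genes the effect of the knockout label in A549 differed between the cultures by the interaction test. ATP5MC1, a c-ring gene of the ATP synthase, had an effect 0.85 higher in oncospheres (log2 scale, SE 0.18, limma adjusted p = 0.0353): −0.72 in normal culture, while in oncospheres wild type had 335.76 and 356.59 TPM and the labelled knockout libraries 360.68 and 398.14 TPM. The call was kept only without wild-type normal replicate 2 (0.97) and was lost without any of the other 7 libraries in turn (0.73 to 0.97). NDUFA4L2 had an effect of −2.08 (SE 0.50, limma adjusted p = 0.0478). Its normal culture values were 1.22 and 2.10 TPM in wild type and 2.09 and 2.26 TPM in the labelled knockout libraries, against 8.07 and 3.46 and 1.18 and 0.52 TPM in oncospheres. Its call was kept only without wild-type oncosphere replicate 2 (−2.59) and was lost without any of the other 7 libraries in turn (−1.57 to −2.34). The call was also lost with a pseudocount of 0.1 (−3.01) and with the replicate number as a block (−2.08).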

How the results depend on the processing

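None of the single genes whose calls were followed under the alternatives changed direction, but others of the 80 did. In A549 normal culture 15 of 80 had a knockout difference above 0, and 20 without the mitochondrially encoded genes. For culture in H2023 wild type 42 lay above 0, and 76 without those genes. Medians near 0 changed direction as well. The median knockout difference in A549 oncospheres (0.01) was −0.02 without the mitochondrially encoded genes, −0.05 in the authors' deposited table and −0.06 to 0.06 with 1 library left out, and the culture median of H2023 wild type (0.02) was −0.02 without oncosphere replicate 2. Over the single genes, 557 gene and setting pairs kept their call, 144 lost it and 12 gained one. With the spread taken from the 8 libraries of a line, knockout calls among the 80 genes were 8 in A549 normal culture, 12 in A549 oncospheres and 13 in H2023 oncospheres. Of all 18227 genes, 2799, 3548 and 281 were called. The authors' deposited tables had 8 for normal A549, 8 for normal H2023 and 21 for H2023 oncospheres. Over all genes they had 3639 of 16460, 1665 of 15400 and 816 of 16106. In H2023 normal culture a mean of at least 1 TPM gave 2 calls and median-centring 1, against 481 of 14449 and 322 of 18227 genes. Without the mitochondrially encoded genes the culture calls were 38 in A549 wild type, 11 in H2023 wild type and 9 in the H2023 labelled knockout. Of all 18212 genes, 7247, 2285 and 3984 were called there. Median-centring gave 10 and 11 in the H2023 groups, against 2715 and 4467 of 18227 genes. All 16 libraries gave 5 in H2023 wild type, against 4986 of 18227. The A549 interaction had 1 call with a pseudocount of 0.1 and 1 with the replicate block, against 916 and 1264 of 18227 genes. NDUFA4L2 was lost with that pseudocount (−3.01) and with that block (−2.08). That block did not change the total calls among the 80 genes in another comparison by over 1.5 times. In the H2023 oncosphere knockout comparison it raised the genes at an unadjusted limma p under 0.05 from 2828 to 4286 of 18227. Deviations of same-numbered knockout and wild-type libraries correlated at 0.075, 0.131, 0.027 and 0.461 over 14823 genes, and no label ties the numbers together, so pairing is not established. Leaving out 1 library gave 0 to 0 calls in all 4 knockout comparisons, 9 to 19 and 8 to 18 for culture in A549 wild type and labelled knockout, 0 to 3 and 7 to 17 in H2023, 0 to 1 and 0 to 0 for the interactions, and 30 to 33 and 39 to 45 for the lines. With 2 libraries a group, an arm reduced to 1 is assumed to vary like the others, so these counts carry little weight. The line fits also called many genes outside the 80, and the knockout fits called almost none. Such counts alone do not set the subunits apart. In the line fits the median of the 80 genes was −0.2 to −0.09 in normal culture and −0.35 to −0.22 in oncospheres. Over all genes it was 0.11 to 0.12 and −0.02 to 0. Depth is unknown, so what counting error limits could not be said.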
